A study of Homo sapiens with 11 samples.

Results

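This account is about H1 cells grown in t2iGo and infected with an shRNA against pCCNE1, compared with H1 cells in the same medium that carried a control shRNA. The members are the library labelled as the pCCNE1 knockdown in t2iGo and the control library of that medium, 2 of the 11 libraries of the series. They were chosen by their labels, not by a measured value. H1 and H7 are established human embryonic stem cell lines, pCCNE1 is named in the study's title as a splice form of CCNE1 found in primates, and an shRNA is a short hairpin RNA that lowers the RNA it matches. The groups used are, in t2iGo H1, H7 cells in the naive medium 5iLA and primed H1, each of the shRNAs pCCNE1, uCCNE1 and control, collected 5 days after lentiviral infection. All 9 of these libraries carry a lentiviral shRNA, each group is 1 library, and the labels do not say what uCCNE1 stands for, how many clones or cultures a library came from, or how many hairpins were used. With 1 library per group there is no replicate spread, so the comparison within t2iGo has no test. A difference below is log2(RPKM + 1) of the pCCNE1 library minus that of the control library, where RPKM is reads scaled to transcript length and to the depth of the library, and 2-fold means a difference of at least 1.

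Cyclin E1, the product of CCNE1, activates the kinase CDK2 and so helps start DNA replication. Pluripotent stem cells are held by a network of transcription factors around POU5F1, SOX2 and NANOG, and primed human cells also rely on NODAL and activin signalling through SMAD2 and SMAD3. NODAL signalling is limited by antagonists that it induces itself, LEFTY1, LEFTY2 and CER1, and at higher activity it turns on mesendoderm genes such as EOMES and MIXL1. Histone messages of the replication-dependent kind are made in S phase and end in a stem-loop in place of a poly(A) tail.

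The t2iGo libraries were shallower than the primed ones, and the pCCNE1 library was the shallowest of the 9. Depth, estimated from the RPKM value of a single read, was 6.45 M reads in the pCCNE1 library, 9.71 M in the uCCNE1 library and 14.1 M in the control library of t2iGo, against 11.5 to 23.3 M in the other 6. A single read on a 2 kb transcript was therefore worth 0.0775 RPKM in the pCCNE1 library and 0.0355 RPKM in its control. Small non-coding RNAs held 13.4% of the summed RPKM in the pCCNE1 library and 13.1% in the control library, but only 0.222% to 0.525% in primed H1. Where estimated reads are given below, the 95% exact (Clopper-Pearson) interval of the log2 ratio covers counting error only.

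The label naive was at odds with the markers of that state. All 7 naive markers, KLF17, DPPA3, DPPA5, DNMT3L, TFCP2L1, KLF4 and SUSD2, were under 1 RPKM in both t2iGo libraries. Their sum was 2.31 RPKM in the pCCNE1 library and 2.92 RPKM in the control library of t2iGo, beside 519 RPKM in the pCCNE1 library and 677 RPKM in the control library of 5iLA H7. The 5 primed markers, ZIC2, SFRP2, THY1, OTX2 and CD24, summed to 285 RPKM in the pCCNE1 library and 322 RPKM in the control library of t2iGo. In primed H1 they summed to 1660 RPKM in the pCCNE1 library and 1470 RPKM in the control library. CD24 made up most of the t2iGo sums, with 246 RPKM in the pCCNE1 library and 266 RPKM in the control library. The t2iGo cells thus held these markers below their level in primed H1. The cells are therefore called t2iGo H1 here, by their medium and line.

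CCNE1 (NM_001238, chromosome 19) was measured at 5.25 RPKM in the pCCNE1 library, 5.38 RPKM in the uCCNE1 library and 9.65 RPKM in the control library of t2iGo. The pCCNE1 value was thus close to that of uCCNE1 and lower than that of the control by 0.77 on the log2(RPKM + 1) scale. These values rest on an estimated 69 reads in the pCCNE1 library and 278 reads in the control, and the interval of the log2 ratio ran from -1.28 to -0.50. The CCNE1 difference was -0.51 with a trend on transcript length and GC content taken out. The table gives 1 value per gene over its splice forms, and pCCNE1 as a separate form was not measured. CCNE2, which encodes the second E-type cyclin, was at 4.89 RPKM in the pCCNE1 library, 3.37 RPKM in the uCCNE1 library and 3.12 RPKM in the control, a difference of 0.52 on an estimated 86 reads in the pCCNE1 library and 120 in the control. None of the 12 genes of the list for cyclin E and its partners passed 2-fold. CDK2, the kinase partner of cyclin E, was at 12.8 RPKM in the pCCNE1 library and 12.1 RPKM in the control. CDKN1C, a cyclin-dependent kinase inhibitor, came closest to 2-fold among them, with 7.22 RPKM in the pCCNE1 library and 3.12 RPKM in the control.

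Of the 12116 genes kept, with a mean of at least 1 RPKM over the 9 libraries, 89 were past 2-fold higher (0.735%) and 330 past 2-fold lower (2.72%) in the pCCNE1 library. Without the 126 entries named as small RNAs, 72 of 11990 were higher (0.601%) and 291 lower (2.43%). The balance between the directions depended on the scaling, since the median gene lay at -0.11. Higher genes made up 21.2% of those past 2-fold as deposited, 35.7% after median-ratio scaling, 36.6% after quantile normalization and 39.1% after rescaling to entries with a coding accession. With differences centred on the median gene their share was 37.4%.

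Among the named genes with large differences were genes of the NODAL pathway and of pluripotency and clustered histone genes, which had lower values in the pCCNE1 library, and genes of matrix and secreted liver-type proteins, which had higher values. The uCCNE1 library shares the control library, so its values are set beside the others as levels only. Many genes below were named for a large difference between the pCCNE1 and control libraries. A uCCNE1 value between those of the pCCNE1 and control libraries is therefore no separate evidence.

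**Figure D1:**
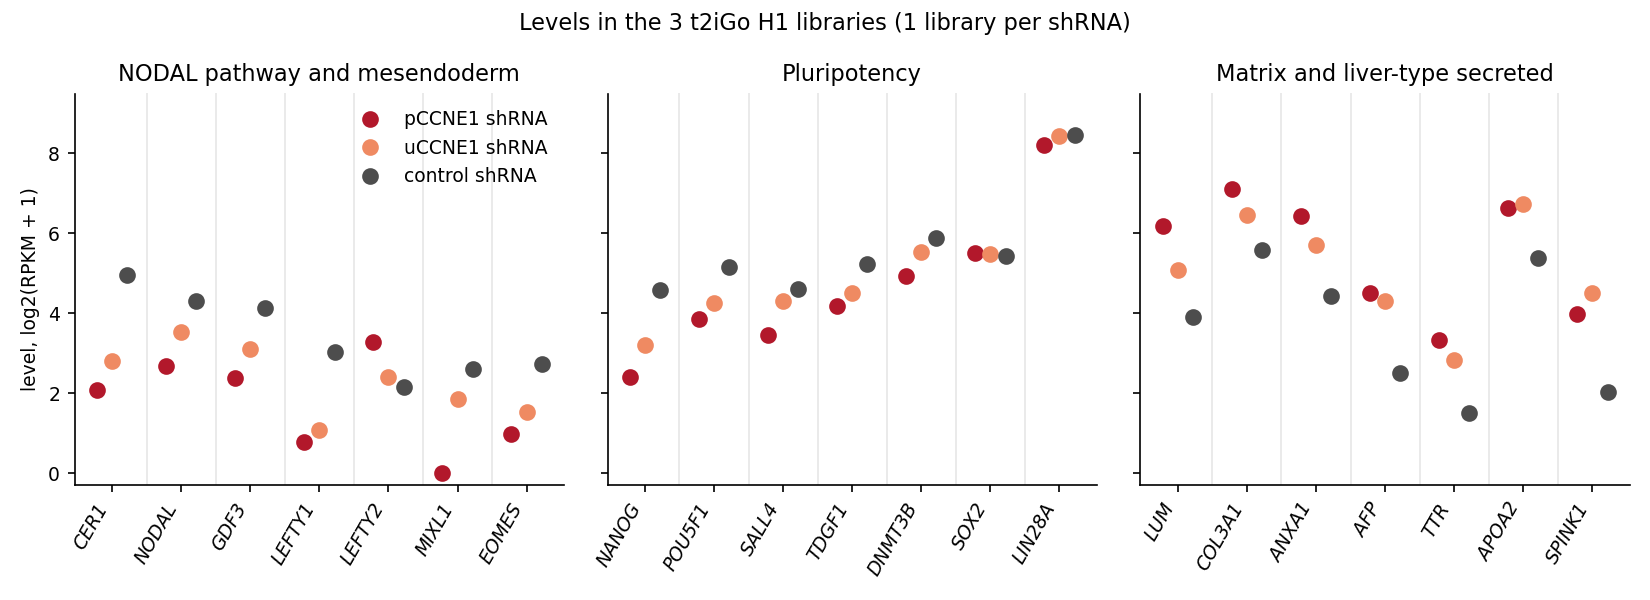
Level of 21 genes in the 3 t2iGo H1 libraries on a log2(RPKM + 1) axis, 1 point per library, with the pCCNE1 shRNA left, uCCNE1 in the middle and control right. CER1, NODAL and NANOG are lowest in the pCCNE1 library (3.25, 5.40 and 4.29 RPKM), LUM and COL3A1 are highest there (71.5 and 137 RPKM), and SOX2 and LIN28A lie within 2-fold.

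CER1, a secreted antagonist of NODAL and BMP ligands, had the largest difference of the NODAL list. It was at 3.25 RPKM in the pCCNE1 library, 6.03 RPKM in the uCCNE1 library and 30.0 RPKM in the control, a difference of -2.87 on an estimated 25 reads in the pCCNE1 library and 514 in the control, with an interval of the log2 ratio from -3.87 to -2.66. NODAL, the ligand, was at 5.40 RPKM in the pCCNE1 library, 10.6 RPKM in the uCCNE1 library and 19.0 RPKM in the control (difference -1.64). GDF3, a related ligand, was at 4.20 RPKM in the pCCNE1 library, 7.58 RPKM in the uCCNE1 library and 16.6 RPKM in the control (difference -1.76). For these 3 genes the pCCNE1 library was the lowest of t2iGo and the uCCNE1 library lay between it and the control. TDGF1, the co-receptor also known as CRIPTO, was at 17.1 RPKM in the pCCNE1 library, 21.8 RPKM in the uCCNE1 library and 36.4 RPKM in the control (difference -1.05). PMEPA1, an induced inhibitor of SMAD signalling, was low in t2iGo, at 0.73 RPKM in the pCCNE1 library and 2.86 RPKM in the control, on an estimated 4 reads in the pCCNE1 library and 34 in the control.

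The antagonists LEFTY1 and LEFTY2 lie side by side on chromosome 1 and are close to identical, so reads can be split between them in error. LEFTY1 was at 0.72 RPKM in the pCCNE1 library and 7.17 RPKM in the control (difference -2.25, on an estimated 8 reads in the pCCNE1 library and 164 in the control). LEFTY2 was at 8.79 RPKM in the pCCNE1 library and 3.48 RPKM in the control (difference 1.13, on an estimated 118 reads in the pCCNE1 library and 102 in the control). The pair thus had differences of opposite sign, while their sum was within 2-fold, with 9.51 RPKM in the pCCNE1 library, 5.46 RPKM in the uCCNE1 library and 10.6 RPKM in the control (difference -0.15 for pCCNE1). Whether reads were exchanged between the pair was not tested.

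Receptors and signal transducers of the pathway lay within 2-fold. The type I receptor ACVR1B was at 5.66 RPKM in the pCCNE1 library and 5.12 RPKM in the control. SMAD2, a signal transducer, was at 12.1 RPKM in the pCCNE1 library and 10.5 RPKM in the control. SMAD3 was at 5.27 RPKM in the pCCNE1 library and 5.68 RPKM in the control. SKIL, an inhibitor of SMAD signalling, was at 14.4 RPKM in the pCCNE1 library and 19.8 RPKM in the control. FOXH1, the DNA-binding partner of SMAD2, was at 1.66 RPKM in the pCCNE1 library and 3.43 RPKM in the control. Over the NODAL list, 17 of 21 genes were kept, of which 6 were past 2-fold lower, 1 was past 2-fold higher and 10 were within 2-fold. The shares over all genes kept were 2.72% lower and 0.735% higher. The median difference of the 17 was -0.46, beside -0.11 for all genes kept. With no filter on low values the median of all 21 was -0.12, beside -0.02 for all genes.

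Mesendoderm genes were at low levels in t2iGo. Of the 10 on the list, 3 were kept, in part through their level in the t2iGo control. Over all 10, none was above 0, 3 were past 2-fold lower (338 of 20163 genes with no filter) and the median was -0.40. EOMES, a T-box factor, was at 0.97 RPKM in the pCCNE1 library, 1.87 RPKM in the uCCNE1 library and 5.66 RPKM in the control (difference -1.76, on an estimated 21 reads in the pCCNE1 library and 270 in the control). MIXL1, a homeobox factor, was listed at 0 in the pCCNE1 library, at 2.64 RPKM in the uCCNE1 library and at 5.10 RPKM in the control. It was the only gene outside the small RNAs that was listed at 0 in the pCCNE1 library with at least 5 RPKM in the control. The other 32 of these 33 entries were small RNAs, and 4 small RNAs showed the reverse.

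NANOG (chromosome 12), a homeobox factor of the pluripotency network, was at 4.29 RPKM in the pCCNE1 library, 8.21 RPKM in the uCCNE1 library and 22.9 RPKM in the control. The difference was -2.17 on an estimated 143 reads in the pCCNE1 library and 1671 in the control, with an interval of the log2 ratio from -2.67 to -2.17. POU5F1, the central POU factor, was at 13.6 RPKM in the pCCNE1 library, 18.2 RPKM in the uCCNE1 library and 34.6 RPKM in the control (difference -1.28). SALL4, a zinc finger factor of the same network, was at 9.998 RPKM in the pCCNE1 library, 18.8 RPKM in the uCCNE1 library and 23.4 RPKM in the control (difference -1.15). In each case the order of the libraries was pCCNE1, uCCNE1 and control from low to high, which is also the order of their depth. With a trend on transcript length and GC content taken out, POU5F1 and SALL4 were within 2-fold, at -0.88 and -0.99, and NANOG was at -2.19.

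Other pluripotency genes were within 2-fold of control. SOX2 was at 44.5 RPKM in the pCCNE1 library and 42.02 RPKM in the control. L1TD1 and DPPA4, markers of pluripotent cells, had differences of -0.33 and -0.43. LIN28A, an RNA-binding protein that blocks let-7 maturation, was at 296 RPKM in the pCCNE1 library and 350 RPKM in the control. DNMT3B, a de novo DNA methyltransferase, was at 29.4 RPKM in the pCCNE1 library and 57.6 RPKM in the control, just inside 2-fold at -0.95. PODXL, a surface sialomucin of stem cells, was slightly above control, at 141 RPKM in the pCCNE1 library and 112 RPKM in the control. Of the 18 listed genes 16 were kept, with a median of -0.50. Past 2-fold lower were 4 of the 16, beside 2.72% of all genes kept, and none was past 2-fold higher. With the trend taken out, 1 of the 16 was past 2-fold lower, and TDGF1 was at -0.92. Neither the naive list (19 kept, median 0.02) nor the primed list (21 kept, median -0.22) had a gene past 2-fold. Only 9 of the 19 naive-list genes had at least 20 estimated reads in the control, and genes near 0 cannot fall far on this scale. A pseudocount of 0.1 RPKM put 2 of the 19 past 2-fold higher and 3 lower, and 1 of the 21 primed-list genes lower. The naive-list genes with the highest control level, TFAP2C, IL6R, NLRP7 and KLF5, were between 1.28 and 5.58 RPKM in the pCCNE1 library and between 0.95 and 5.56 RPKM in the control. Of the primed list, VIM and CDH2 had differences of -0.22 and 0.00. In a bulk library, fewer cells of a type and less RNA per cell cannot be told apart.

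The 250 bases before the annotated start of 3 of these lower genes are shown, because NANOG carries an octamer core and NODAL and CER1 have no match to the motifs searched. They come from RefSeq on build GRCh38.p14, as does every promoter below, are written 5′ to 3′ on the gene's strand, and have matches in capitals. The motifs were TTTGCAT, the core of the octamer that POU factors bind, CCAAT and TATAAA, searched on both strands. A match is a description of the letters and not a site.
NANOG, chr12:7789152-7789401, plus strand: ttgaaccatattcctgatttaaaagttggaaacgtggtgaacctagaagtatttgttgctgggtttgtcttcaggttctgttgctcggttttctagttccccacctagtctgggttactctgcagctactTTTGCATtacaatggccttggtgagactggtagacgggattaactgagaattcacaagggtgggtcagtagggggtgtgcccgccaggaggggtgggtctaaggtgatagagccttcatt
NODAL, chr10:70441682-70441931, minus strand: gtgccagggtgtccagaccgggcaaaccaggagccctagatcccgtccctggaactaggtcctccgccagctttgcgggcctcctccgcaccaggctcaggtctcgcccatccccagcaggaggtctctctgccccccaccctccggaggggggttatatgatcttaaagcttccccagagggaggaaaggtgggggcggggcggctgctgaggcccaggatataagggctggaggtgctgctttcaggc
CER1, chr9:14722734-14722983, minus strand: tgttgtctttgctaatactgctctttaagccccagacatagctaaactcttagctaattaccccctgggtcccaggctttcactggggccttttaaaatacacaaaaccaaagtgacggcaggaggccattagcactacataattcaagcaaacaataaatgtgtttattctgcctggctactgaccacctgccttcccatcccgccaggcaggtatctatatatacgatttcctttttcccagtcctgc
The octamer core of NANOG starts 120 bases before the gene's start and belongs to the joint element for POU5F1 and SOX2 that is known from this promoter. The octamer core was found in 3.94% of all 35116 promoter windows. It was in 2 of the 13 core pluripotency genes with a window and in 2 of the 17 NODAL genes with one.

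Clustered histone genes, which encode the replication-dependent histones H1, H2A, H2B, H3 and H4, were lower as a group. Of 71 such entries 63 were kept, with a median difference of -1.39. Past 2-fold lower were 51 of the 63, beside 2.72% of all genes kept, and none was past 2-fold higher. Below 0 were 61 of the 63, beside 62.7% of all genes kept. The summed level of the 63 was 1490 RPKM in the pCCNE1 library, 1860 RPKM in the uCCNE1 library and 3850 RPKM in the control. HIST1H3H was at 4.88 RPKM in the pCCNE1 library, 8.85 RPKM in the uCCNE1 library and 25.5 RPKM in the control (difference -2.17). HIST1H3B was at 42.3 RPKM in the pCCNE1 library, 77.8 RPKM in the uCCNE1 library and 138 RPKM in the control (difference -1.68). HIST1H1E, a linker histone, was at 20.1 RPKM in the pCCNE1 library, 34.8 RPKM in the uCCNE1 library and 68.3 RPKM in the control (difference -1.71). HIST1H2AC, HIST1H2BG, HIST1H2BI, HIST1H3F, HIST1H4B and HIST1H4K had differences between -1.95 and -1.57. The highest of the 26 genes on the list of replication-dependent histones in the control, HIST1H4E, was at 122 RPKM in the pCCNE1 library and 254 RPKM in the control (difference -1.05).

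All 5 classes were lower: the median was -1.20 for 6 H1 genes, -1.41 for 14 H2A genes, -1.55 for 17 H2B genes, -1.47 for 12 H3 genes and -1.38 for 14 H4 genes. Several of these genes are near-identical copies, among them HIST2H4A and HIST2H4B with 17.8 RPKM each in the pCCNE1 library and 76.2 RPKM each in the control, so single values are uncertain. Histone messages are short and rich in GC, both of which moved with the difference over all genes. With a trend on both removed, 34 of the 63 genes were past 2-fold lower and the median was -1.01. The 14 related genes outside the clusters were within 2-fold, between -0.53 for the linker histone H1FX and 0.35 for CASP8AP2. The variant H2AFY was at 25.5 RPKM in the pCCNE1 library and 34.6 RPKM in the control. The replacement variants H3F3B and H2AFZ were at 66.7 and 215 RPKM in the pCCNE1 library and at 68.9 and 240 RPKM in the control. SLBP, which binds the histone stem-loop, was at 25.5 RPKM in the pCCNE1 library and 23.0 RPKM in the control. NPAT, the histone locus factor that cyclin E with CDK2 phosphorylates, was at 8.84 RPKM in the pCCNE1 library and 7.84 RPKM in the control.

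**Figure D2:**
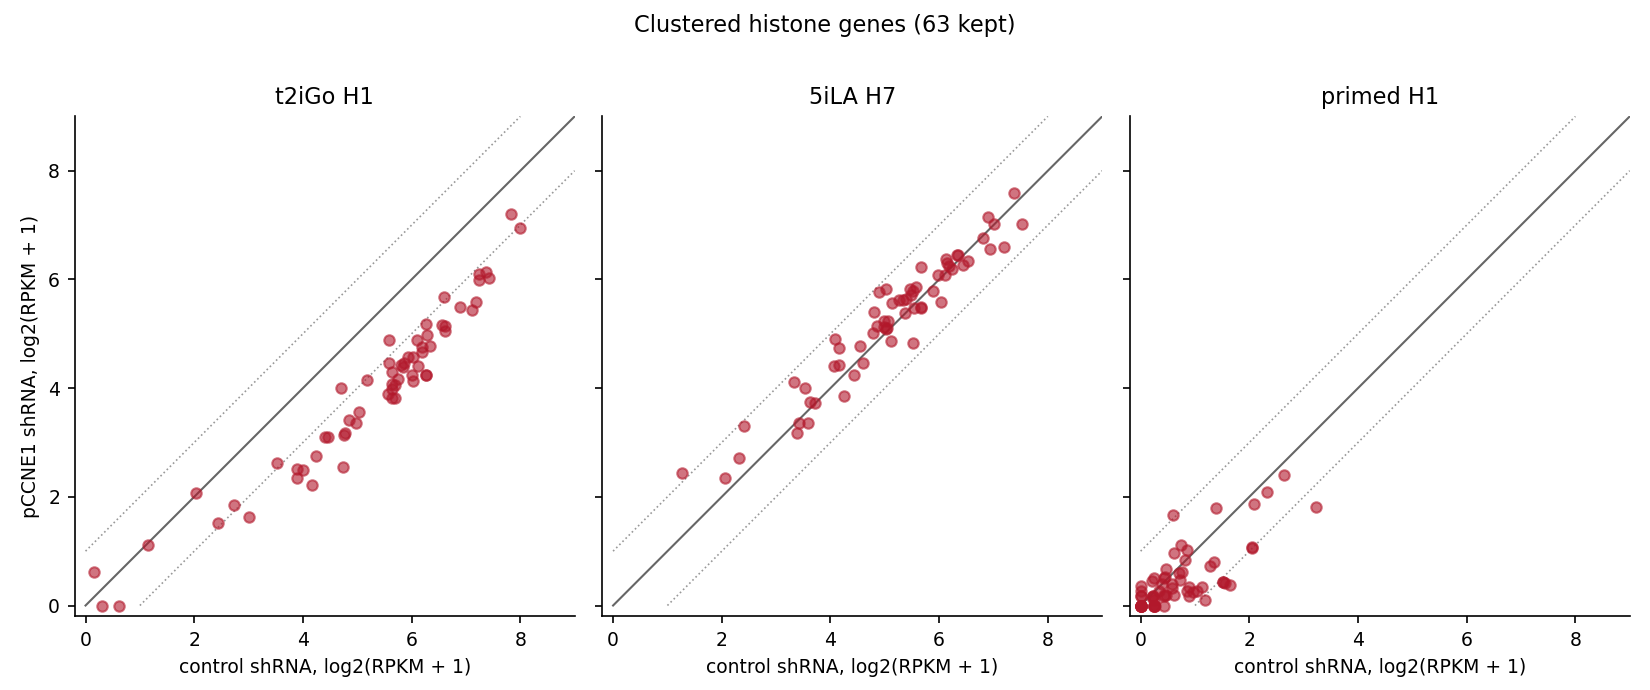
Level of the 63 clustered histone genes kept, pCCNE1 shRNA on the vertical axis and control shRNA on the horizontal axis, both as log2(RPKM + 1), 1 point per gene and 1 panel per culture, with the solid line at equality and dotted lines at 2-fold. In t2iGo H1, 51 genes lie below the lower dotted line; in 5iLA H7 the points follow the solid line; in primed H1 they sit near 0.

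The median difference of these histone genes for pCCNE1 was 0.14 in 5iLA H7, with sums of 3140 RPKM in the pCCNE1 library, 1340 RPKM in the uCCNE1 library and 3020 RPKM in the control. A low histone sum under a CCNE1 shRNA was thus also seen in 5iLA H7, in the uCCNE1 library. In primed H1 the sums were 34.1 RPKM in the pCCNE1 library, 69.8 RPKM in the uCCNE1 library and 58.2 RPKM in the control, so these messages were near 0 in that culture. The share of small RNAs, which also lack a poly(A) tail, was 13.4% in the pCCNE1 library and 13.1% in the control of t2iGo. The part that RNA selection has in these values was not tested.

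The windows before 2 histone genes show the elements that the class shares. They are an H2B gene, HIST1H2BJ (H2BC11 in RefSeq), which was at 16.5 RPKM in the pCCNE1 library and 64.5 RPKM in the control, and HIST1H3B (H3C2 in RefSeq).
HIST1H2BJ, chr6:27132796-27133045, minus strand: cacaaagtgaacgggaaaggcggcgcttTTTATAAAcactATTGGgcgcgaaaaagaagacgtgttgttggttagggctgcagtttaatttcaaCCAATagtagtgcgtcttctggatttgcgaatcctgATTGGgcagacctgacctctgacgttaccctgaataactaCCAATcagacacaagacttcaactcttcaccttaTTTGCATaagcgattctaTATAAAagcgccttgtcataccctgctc
HIST1H3B, chr6:26032100-26032349, minus strand: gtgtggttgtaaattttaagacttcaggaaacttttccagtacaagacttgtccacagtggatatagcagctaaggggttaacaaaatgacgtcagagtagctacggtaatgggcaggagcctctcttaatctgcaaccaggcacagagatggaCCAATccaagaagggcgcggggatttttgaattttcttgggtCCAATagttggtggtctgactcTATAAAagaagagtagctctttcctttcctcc
In HIST1H2BJ the octamer core starts 46 bases and the nearest TATAAA 28 bases before the gene's start, and 2 further TATAAA matches on opposite strands overlap at the far end. Of the 63 kept histone genes, 53 had a window. A CCAAT box was in 83.0% of these and in 32.0% of all windows, and TATAAA was in 64.2% of these and 10.7% of all. The octamer core was in 8 of the 12 H2B genes with a window (66.7%), in 35.8% of all histone windows and in 3.94% of all windows.

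Genes of DNA replication and mitosis differed less than histones did. Of all genes kept, 2.72% were past 2-fold lower, so 1 such gene in each list of this paragraph is near that share. Of 28 S phase genes 1 was past 2-fold lower and none higher, with a median of -0.31. That gene was MCM5, a subunit of the replicative helicase, at 3.76 RPKM in the pCCNE1 library, 7.66 RPKM in the uCCNE1 library and 10.6 RPKM in the control. PCNA, the sliding clamp, was at 65.5 RPKM in the pCCNE1 library and 63.4 RPKM in the control. Of 24 genes of G2 and mitosis 1 was past 2-fold lower, with a median of 0.04. It was CDC20, an activator of the anaphase-promoting complex, at 13.6 RPKM in the pCCNE1 library and 29.5 RPKM in the control. CCNA2, cyclin A2, was at 43.0 RPKM in the pCCNE1 library and 40.6 RPKM in the control. Among 17 p53 target genes BAX, a pore-forming protein of apoptosis, alone was past 2-fold lower, at 2.65 RPKM in the pCCNE1 library and 6.43 RPKM in the control, on an estimated 14 reads in the pCCNE1 library and 72 in the control. With the trend taken out, MCM5, CDC20 and BAX were all within 2-fold, and CDC20 and BAX were so with median-ratio scaling too. CDKN1A, the p21 inhibitor, was at 2.06 RPKM in the pCCNE1 library and 1.19 RPKM in the control.

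Of the 72 genes past 2-fold higher outside the small RNAs, 3 were on the matrix list and 7 on the list of secreted liver-type proteins. LUM, a small proteoglycan of collagen matrix, was at 71.5 RPKM in the pCCNE1 library, 32.7 RPKM in the uCCNE1 library and 13.9 RPKM in the control. Its difference of 2.28 rests on an estimated 1386 reads in the pCCNE1 library and 590 in the control, with an interval of the log2 ratio from 2.22 to 2.50. COL3A1, a fibrillar collagen chain, was at 137 RPKM in the pCCNE1 library, 86.9 RPKM in the uCCNE1 library and 47.3 RPKM in the control (difference 1.51). LOX, which crosslinks collagen, was at 5.21 RPKM in the pCCNE1 library, 1.32 RPKM in the uCCNE1 library and 0.75 RPKM in the control (difference 1.83). In all 3 genes the uCCNE1 library lay between the others. Other genes named for their large differences are on neither list. ANXA1, a phospholipid-binding annexin, was at 85.0 RPKM in the pCCNE1 library, 51.5 RPKM in the uCCNE1 library and 20.7 RPKM in the control (difference 1.98). NID2, a basement membrane nidogen, and NPNT, an integrin ligand, had differences of 1.85 and 1.83. FILIP1L and PRSS23 were at 1.80 and 1.76.

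The matrix list did not move one way. Of its 20 genes kept, 3 were past 2-fold higher and 2 past 2-fold lower, with a median of 0.48. The lower genes were a pair of collagen VI chains. COL6A1 was at 2.43 RPKM in the pCCNE1 library and 7.16 RPKM in the control. COL6A2 was at 1.32 RPKM in the pCCNE1 library and 3.96 RPKM in the control. Of 17 smooth muscle and cytoskeleton genes 4 were past 2-fold higher and none lower (median 0.44). Both lists stand beside 0.735% of all genes kept past 2-fold higher and 2.72% lower. ACTA2, smooth muscle actin, was at 11.2 RPKM in the pCCNE1 library, 5.53 RPKM in the uCCNE1 library and 5.01 RPKM in the control. CYR61, a matricellular target of YAP, was at 14.0 RPKM in the pCCNE1 library and 6.17 RPKM in the control. TGFBI, a matrix protein induced by TGF-beta, was at 7.71 RPKM in the pCCNE1 library and 3.29 RPKM in the control. IGFBP3, an IGF-binding protein, and NPPB, a natriuretic peptide, had differences of 1.73 and 1.94 from control levels of 0.84 and 0.64 RPKM.

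AFP (chromosome 4), the fetal plasma protein alpha-fetoprotein, was at 21.6 RPKM in the pCCNE1 library, 18.7 RPKM in the uCCNE1 library and 4.71 RPKM in the control (difference 1.99, on an estimated 346 reads in the pCCNE1 library and 165 in the control). TTR, a thyroxine carrier, was at 9.12 RPKM in the pCCNE1 library, 6.10 RPKM in the uCCNE1 library and 1.85 RPKM in the control (difference 1.83). APOA2, an apolipoprotein of high-density lipoprotein, was at 97.6 RPKM in the pCCNE1 library, 105 RPKM in the uCCNE1 library and 40.6 RPKM in the control (difference 1.25). SPINK1, a secreted trypsin inhibitor, was at 14.8 RPKM in the pCCNE1 library, 21.9 RPKM in the uCCNE1 library and 3.08 RPKM in the control. For APOA2 and SPINK1 the uCCNE1 library was the highest. The fibrinogen chains FGA, FGB and FGG had differences of 1.13, 1.75 and 1.23. Over all 20 listed genes, 7 were past 2-fold higher and none lower, 13 were above 0 and 6 below, and the median was 0.23. With no filter, 109 of all 20163 genes were past 2-fold higher and 338 lower. The 11 kept had a median of 1.23, but these genes were near 0 in the other cultures, so several were kept through the t2iGo libraries in which they were high. With a mean of at least 5 RPKM, 5 genes were left, 2 of them past 2-fold higher, with a median of 0.07. ALB, the main plasma protein of the liver, was at 0.43 RPKM in the pCCNE1 library and 0.16 RPKM in the control. The window before AFP is shown as the gene with the largest difference of this list.
AFP, chr4:73435971-73436220, plus strand: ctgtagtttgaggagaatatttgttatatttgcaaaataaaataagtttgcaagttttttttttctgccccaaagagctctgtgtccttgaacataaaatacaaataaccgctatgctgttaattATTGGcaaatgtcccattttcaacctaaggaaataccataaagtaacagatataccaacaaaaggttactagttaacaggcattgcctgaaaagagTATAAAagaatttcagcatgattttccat
It holds a TATAAA 29 bases and a CCAAT box, on the other strand, 125 bases before the gene's start.

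Marker lists of other cell types share genes with these lists and give the following sums. The 6 markers of fibroblast or feeder cells, COL1A1, COL1A2, COL3A1, LUM, DCN and POSTN, summed to 224 RPKM in the pCCNE1 library, 128 RPKM in the uCCNE1 library and 67.5 RPKM in the control, and all 6 were higher in the pCCNE1 library than in the control. Their levels ran from 2.31 to 137 RPKM in the pCCNE1 library and from 0.572 to 47.3 RPKM in the control. LUM and COL3A1 made up most of the sum in each of these libraries. The 5 endoderm markers summed to 45.7 RPKM in the pCCNE1 library, 42.8 RPKM in the uCCNE1 library and 21.7 RPKM in the control. Of these, AFP and TTR carried the higher sum, APOA1 was at 13.2 RPKM in the pCCNE1 library and 12.6 RPKM in the control, and the regulators SOX17 and FOXA2 were under 1 RPKM in the pCCNE1 library and at 1.33 and 1.17 RPKM in the control. The 5 trophoblast markers summed to 2.27 RPKM in the pCCNE1 library and 0.611 RPKM in the control, with KRT7 at 0 in both. The 3 neural markers summed to 1.75 RPKM in the pCCNE1 library and 0.633 RPKM in the control, with HES5 at 0 in both. The 4 blood markers summed to 0.401 RPKM in the pCCNE1 library and 0.0561 RPKM in the control, with HBA1 and HBE1 at 0 in both. The part of other cell types in the values of matrix and liver-type genes was not tested. The markers of any pluripotent cell summed to 358 RPKM in the pCCNE1 library, 418 RPKM in the uCCNE1 library and 450 RPKM in the control. LIN28A made up most of these sums, with 296 RPKM in the pCCNE1 library and 350 RPKM in the control. Of the others, NANOG and POU5F1 were past 2-fold lower and SOX2 was within 2-fold.

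**Figure D3:**
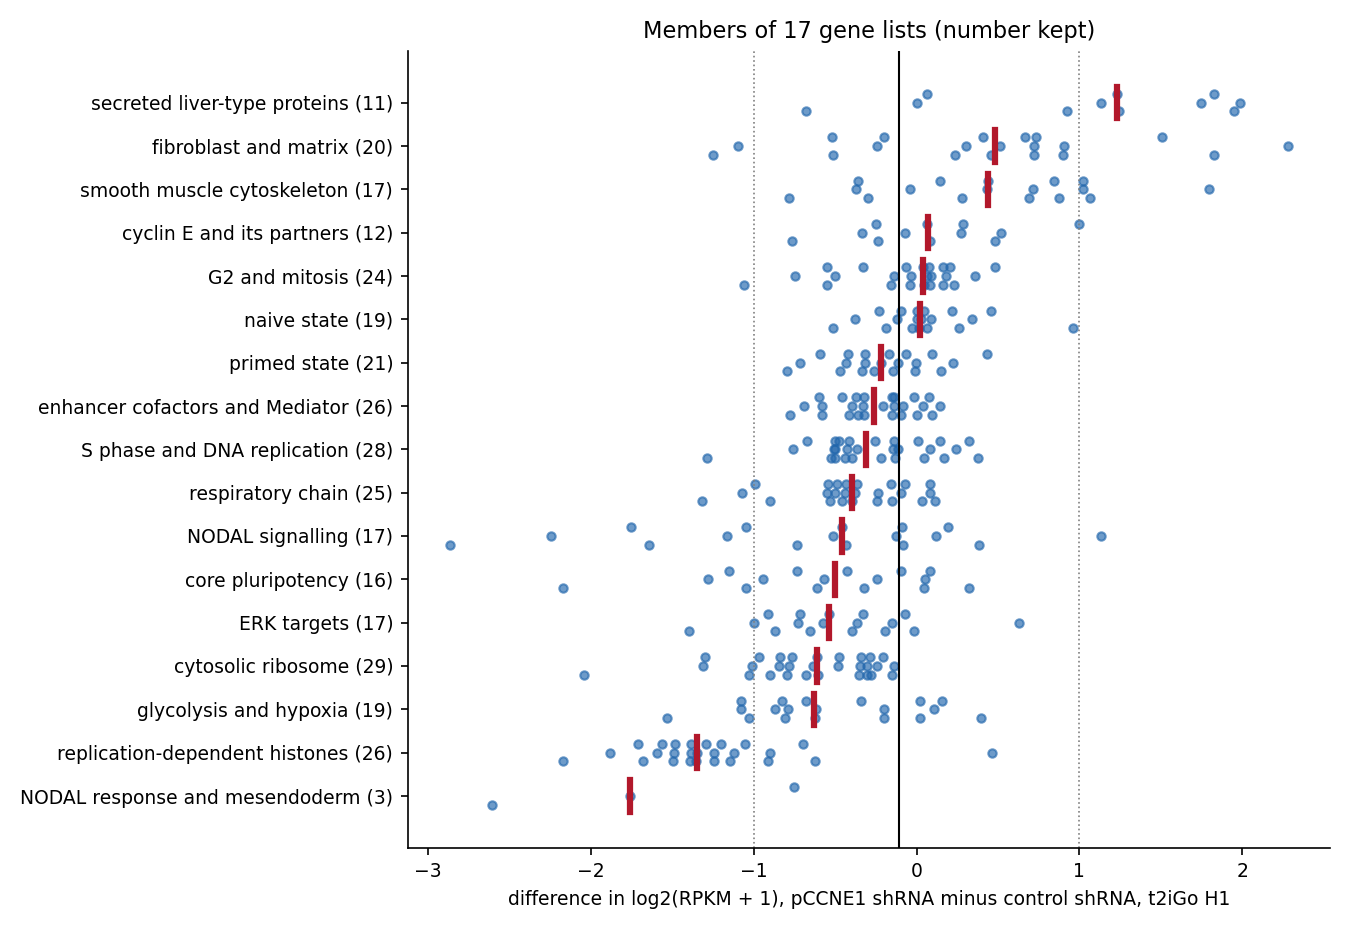
Difference in log2(RPKM + 1) between the pCCNE1 and control libraries of t2iGo H1 for the kept members of 17 gene lists, 1 point per gene, with a red bar at each list's median, a black line at the median of all genes (-0.11) and dotted lines at 2-fold. Clustered histones lie almost wholly to the left (median -1.35), secreted liver-type proteins mostly to the right (median 1.23), and NODAL signalling spreads from -2.87 to 1.13. Several of the 11 liver-type genes shown were kept through the t2iGo libraries in which they were high. Over all 20 listed liver-type genes the median was 0.23.

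Targets of other signalling pathways are read against all genes kept, of which 62.7% were below 0 and 2.72% past 2-fold lower. Of 17 ERK target genes 16 were below 0 (median -0.54), and 13 were with the length and GC trend taken out. Only FOS, an immediate early gene, was past 2-fold lower among them. With a pseudocount of 0.1 RPKM, 8 of the 17 were, while the count over all 12116 genes kept went from 330 to 1059. FOS was at 1.71 RPKM in the pCCNE1 library, 1.26 RPKM in the uCCNE1 library and 6.13 RPKM in the control. MYC was at 1.81 RPKM in the pCCNE1 library and 4.29 RPKM in the control. Of 8 BMP target genes kept, ID1 and ID3, inhibitors of helix-loop-helix factors, were past 2-fold lower. ID1 was at 3.23 RPKM in the pCCNE1 library, 6.43 RPKM in the uCCNE1 library and 13.0 RPKM in the control. ID3 was at 5.84 RPKM in the pCCNE1 library, 9.57 RPKM in the uCCNE1 library and 15.1 RPKM in the control. With the trend taken out, 1 of the 8 was past 2-fold lower. SP5 was the only one of 10 WNT target genes past 2-fold, at 1.92 RPKM in the pCCNE1 library and 5.53 RPKM in the control, and with the trend taken out none was and the median was 0.05 in place of -0.19.

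Genes of translation and energy metabolism had values below control in larger shares than the 62.7% of all genes kept, and their counts moved with the scaling. All 29 cytosolic ribosome genes kept were below 0 (median -0.61). Past 2-fold lower were 5 of the 29, beside 2.72% of all genes kept, and none was past 2-fold higher. RPS19, a protein of the small subunit, was at 72.1 RPKM in the pCCNE1 library, 144 RPKM in the uCCNE1 library and 181 RPKM in the control (difference -1.31). RPS15, RPL18 and RPL3 were at -1.30, -1.03 and -1.01. With the trend on length and GC content taken out, the list's median was -0.36 and 1 gene was past 2-fold lower. Of 19 genes of glycolysis and hypoxia 14 were below 0, 4 were past 2-fold lower and none higher, with a median of -0.63 as deposited and -0.36 with the trend taken out, where 1 gene was past 2-fold lower. PDK1, a kinase that limits pyruvate entry into mitochondria, was at 6.27 RPKM in the pCCNE1 library, 9.11 RPKM in the uCCNE1 library and 20.1 RPKM in the control (difference -1.54). GAPDH, the glycolytic dehydrogenase, was at 275 RPKM in the pCCNE1 library and 564 RPKM in the control (difference -1.03, and -0.64 with the trend taken out). The aldolases ALDOA and ALDOC were both at -1.08. Of 25 respiratory chain genes 21 were below 0 and 2 past 2-fold lower (median -0.40), and with the trend taken out none was past 2-fold lower. CYC1, cytochrome c1, was at 4.99 RPKM in the pCCNE1 library and 11.6 RPKM in the control. NDUFA3, a subunit of complex I, and C17orf89 were among the genes with the largest negative differences, at -1.94 and -1.79.

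Some of the largest values belonged to genes that share sequence or a locus with others and are uncertain. RPL21, a ribosomal protein gene with many processed copies, was at 0 estimated reads in the pCCNE1 library and 230 in the control, where its level was 20.03 RPKM. HNRNPA1P10, a pseudogene of HNRNPA1, was at 13.0 RPKM in the pCCNE1 library, 6.51 RPKM in the uCCNE1 library and 0.0027 RPKM in the control. The readthrough entry COMMD3-BMI1 was at 0.0007 RPKM in the pCCNE1 library and 4.13 RPKM in the control. Summed with COMMD3 and BMI1, that locus was at 19.4 RPKM in the pCCNE1 library, 19.7 RPKM in the uCCNE1 library and 15.2 RPKM in the control.

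The study's title concerns enhancers, so cofactors of enhancers were listed as well. None of the 26 genes kept for enhancer cofactors and Mediator was past 2-fold (median -0.26). The acetyltransferase EP300 was at 9.23 RPKM in the pCCNE1 library and 12.1 RPKM in the control. HHLA1, a transcript linked to an endogenous retrovirus, was at 1.07 RPKM in the pCCNE1 library, 3.996 RPKM in the uCCNE1 library and 6.02 RPKM in the control. It was the only one of 5 such transcripts past 2-fold.

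The next question was whether pCCNE1 knockdown did the same in the other cultures, which have controls of their own. Of the 72 genes higher in t2iGo H1, 50 (69.4%) were above 0 in 5iLA H7, where 23.1% of all genes were, and 41 (56.9%) were above 0 in primed H1, where 51.1% of all genes were. The median of the 72 was 0.14 in 5iLA H7, where that of all genes kept was -0.30, and 0.10 in primed H1. Genes near 0 cannot fall far on this scale, and LUM was between 0.0569 and 0.503 RPKM in 5iLA H7. Past 2-fold higher were 8 of the 72 (11.1%, beside 0.826% of all genes) in 5iLA H7 and 3 (4.17%, beside 0.709%) in primed H1, and no gene was so in both. ANXA1 was among the 8, at 17.9 RPKM in the pCCNE1 library and 3.85 RPKM in the control of 5iLA H7. PCSK1, a prohormone convertase, was another, at 15.8 RPKM in the pCCNE1 library and 3.21 RPKM in the control of 5iLA H7. Of the 291 lower genes, 211 (72.5%) were below 0 in 5iLA H7, near the 76.2% of all genes, and 224 (77.0%) in primed H1, beside 48.5% of all genes. The lower genes had a median GC content of 58.9%, beside 48.6% for all kept genes. In primed H1 the pCCNE1 median was itself -0.41 for genes of 58% to 62% GC and -0.76 for those of 62% or more. The part of GC content in the shared direction was not tested. Past 2-fold lower in both 5iLA H7 and primed H1 as well were 4 genes, CYBA, GUK1, PCK2 and RPS28. PCK2, the mitochondrial phosphoenolpyruvate carboxykinase, was at 1.41 RPKM in the pCCNE1 library and 5.04 RPKM in the control of t2iGo. RPS28, a ribosomal protein gene with near-identical copies, was listed at 0 in the pCCNE1 library and at 3.12 RPKM in the control of t2iGo.

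**Figure D4:**
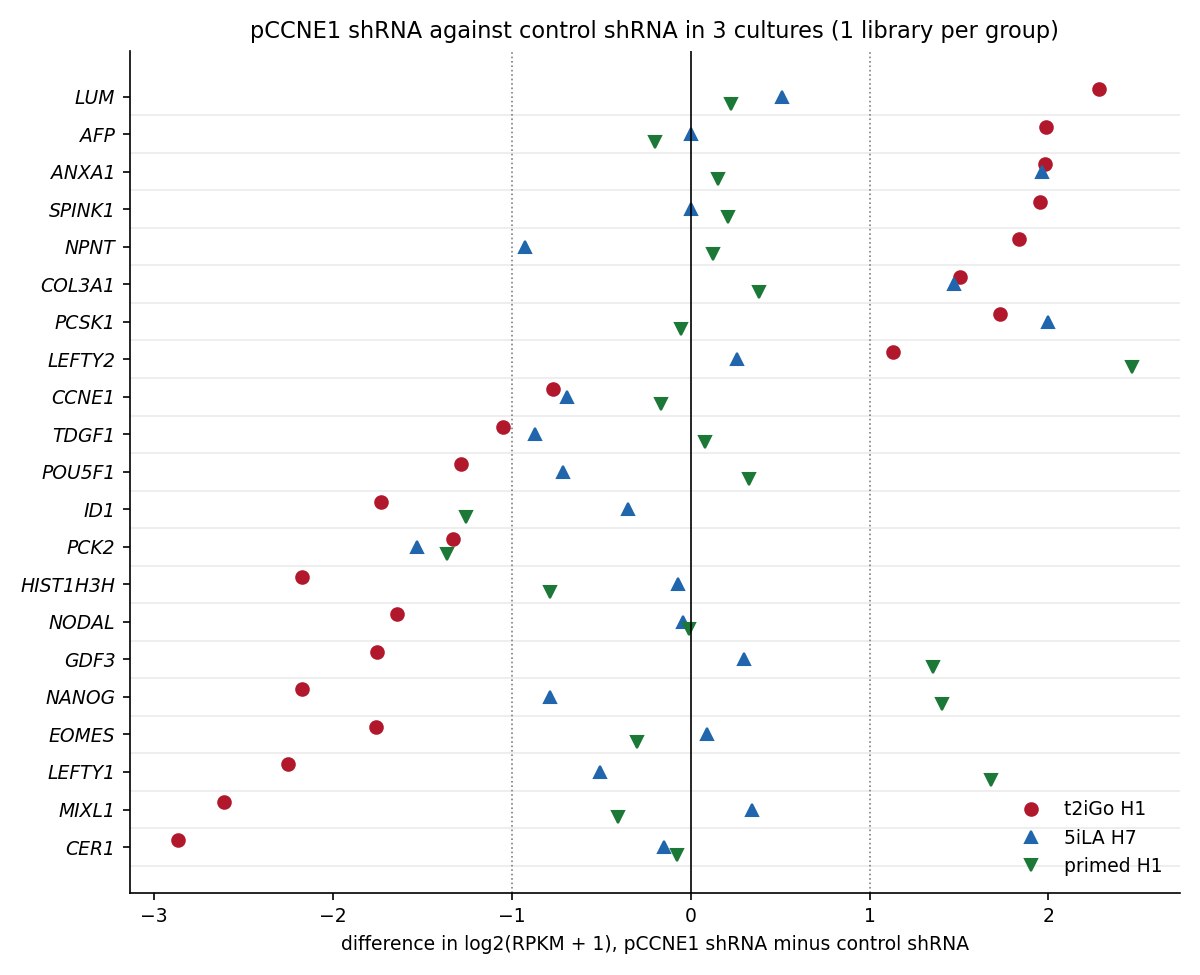
Difference in log2(RPKM + 1) between the pCCNE1 shRNA and the control shRNA for 21 genes in t2iGo H1 (circles), 5iLA H7 (triangles pointing up) and primed H1 (triangles pointing down), 1 library per group, with dotted lines at 2-fold. CER1, MIXL1 and NODAL lie past 2-fold lower in t2iGo H1 (-2.87, -2.61 and -1.64) and within 2-fold in the other cultures, NANOG and GDF3 lie above 1 in primed H1, and PCK2 is past 2-fold lower in all 3.

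Several NODAL pathway and pluripotency genes had other values in the other cultures. NANOG, at -2.17 in t2iGo H1, was at -0.79 in 5iLA H7 and 1.40 in primed H1, where it was at 51.2 RPKM in the pCCNE1 library and 18.7 RPKM in the control. GDF3, at -1.76 in t2iGo H1, was at 0.30 in 5iLA H7 and 1.36 in primed H1. CER1 was listed at 0 in the pCCNE1 library and at 0.11 RPKM in the control of 5iLA H7, and at 2.28 RPKM in the pCCNE1 library and 2.46 RPKM in the control of primed H1. AFP, TTR and FGB were under 1 RPKM in all 6 libraries of 5iLA H7 and primed H1 except AFP in the uCCNE1 library of primed H1, so their differences there carry little information.

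The difference between cultures was tested with limma, as the pCCNE1 effect in t2iGo H1 minus its mean effect in the other cultures. The t2iGo libraries are fitted exactly in this model. The spread comes from the 6 libraries of 5iLA H7 and primed H1 on 2 residual degrees of freedom, and t2iGo is assumed to vary like them. No group has a replicate, so this spread is how far the shRNA effects differ between 5iLA H7 and primed H1. The limma SE and p below therefore do not measure the spread of repeated libraries, at any level of expression. Of 12116 genes, 19 passed higher (0.157%) and 42 lower (0.347%) after Benjamini-Hochberg adjustment by limma, and 20 of these 61 were not small RNAs. CER1 had a difference between cultures of -2.76 ± 0.47 (SE, limma, adjusted p = 0.000115). MIXL1 was at -2.58 ± 0.50 and LEFTY1 at -2.84 ± 0.55 (limma, adjusted p = 0.00103 and 0.0013), the second with the doubt over its copy LEFTY2. GDF3 was at -2.58 ± 0.63 (limma, adjusted p = 0.0305). For AFP the difference between cultures was 2.09 and for LUM 1.91. In the 6 libraries that supply the spread, AFP was between 0 and 1.13 RPKM and LUM between 0.0569 and 0.503 RPKM. MIXL1 was at most 1.41 RPKM in them, and CER1 was between 0 and 0.24 RPKM in 5iLA H7. Near 0 the log2(RPKM + 1) scale leaves little room for spread. For such genes the limma SE and p therefore do not measure the spread at their t2iGo levels. NANOG did not pass, at -2.48 ± 0.68 (limma, adjusted p = 0.0886), nor did NODAL at -1.62 ± 0.54 (limma, adjusted p = 0.434) or CCNE1 at -0.34 ± 0.54 (limma, adjusted p = 1).

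These calls depended on the settings. Without small RNAs in the fit 29 genes passed, but with 1 term for pCCNE1 in t2iGo only 1 gene outside the small RNAs passed, and with median-ratio scaling or quantile normalization none did. At an unadjusted limma p under 0.05 there were 381 genes as fitted, 369 with median-ratio scaling and 424 with quantile normalization, small RNAs included. The smallest p-values of all belonged to small RNAs, SNORA33, SNORA38B, SNORD8 and SCARNA1 in the higher direction with HNRNPA1P10, and MIR1248, SNAR-G1, RNU12, SNORA71D and SNORA40 in the lower. These short entries share reads with hosts and copies and are uncertain. SNORA33 was the first of them, with a difference between cultures of 6.47 ± 0.50 (SE, limma, adjusted p = 3.09e-14).

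Transcript length and GC content moved with the difference. The median difference was 0.17 for genes under 38% GC and -0.44 for genes of 58% to 62% GC. It was -0.23 for transcripts under 600 bases and -0.01 for those of 6000 bases or more. Lower genes had a median length of 1416 bases and a GC content of 58.9% (288 genes with a length), higher genes 2580 bases and 44.5% (72 genes), and all kept genes 2827 bases and 48.6%. A trend on both properties accounted for 25.1% of the variance of the difference. With it removed, 129 genes were past 2-fold higher and 113 lower of 11965, so that higher genes were 53.3% of the total in place of 21.2%.

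**Figure D5:**
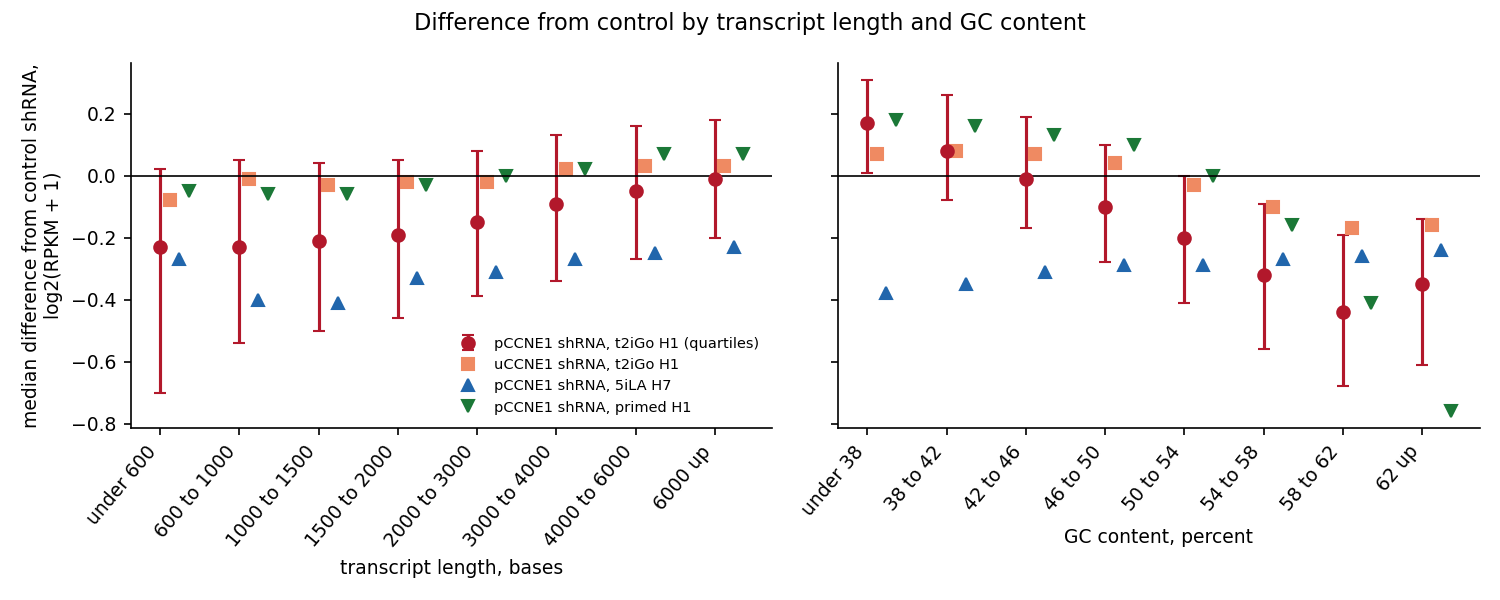
Median difference from control in log2(RPKM + 1) by transcript length (left) and GC content (right), as red circles with quartile bars for pCCNE1 in t2iGo H1, and as medians alone for uCCNE1 in t2iGo H1, pCCNE1 in 5iLA H7 and pCCNE1 in primed H1. The pCCNE1 medians in t2iGo H1 lie between 0.17 and -0.44 over GC content; those of primed H1 reach -0.76 at the highest GC content and those of 5iLA H7 stay between -0.38 and -0.24.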

How the data were processed

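The data are RNA-seq values per gene from 9 shRNA libraries. The authors deposited RPKM values in 1 table, and per the submitters' processing notes TopHat2 2.3.0, Cufflinks 1.2.1 and build hg19 were named; the role of each tool is not given in the sources used here. RNA was total RNA prepared with TruSeq kits, per the labels' protocols. From the deposited RPKM, log2(RPKM + 1) differences were computed for 12116 of 23287 genes with a mean of at least 1 RPKM, with 2-fold as the threshold since 1 library per group allows no test. The difference between cultures was tested with limma 3.58.1 in R 4.3.3 on 9 libraries (Benjamini-Hochberg adjusted p under 0.05), after a check on simulated data. Other values were computed in Python 3.11.15 with numpy 2.4.6, pandas 2.3.3 and scipy 1.17.1. Depth and reads were estimated from the step of 1 read in RPKM, with 95% intervals. Lengths and GC content come from transcripts of build GRCh38, matched by accession for 21905 entries (94.1%) and by symbol for 770, which left 612 without one, and 98.8% of the kept genes outside the small RNAs had a length. No coordinates were carried between builds.

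Named genes were CCNE1 and CCNE2, the 15 largest differences in each direction with at least 5 RPKM in the higher library outside the small RNAs, up to 6 members past 2-fold per list, the 4 members with the highest control level of the pluripotency, NODAL, naive and primed lists, the 5 smallest p-values per direction of the limma test, and close copies. Other genes are list members named to describe their list and were chosen after their values were seen. The members and the 31 gene lists were chosen with earlier results of these data known. Alternatives tried were other pseudocounts, filters, scalings, a removed trend on length and GC content, and other limma designs. The 2 untreated H7 libraries were not used here.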

Additional observations from a re-analysis of the deposited data

Results flagged for a closer look

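The effect of the pCCNE1 shRNA in t2iGo H1 passed limma's test of its difference from the mean effect in 5iLA H7 and primed H1 for 20 genes outside the small RNAs, and each value here is that difference on the log2(RPKM + 1) scale. Each arm is 1 library, so the spread of the test is how far the shRNA effects differ between 5iLA H7 and primed H1. With median-ratio scaling or quantile normalization no gene outside the small RNAs passed, and with 1 term for pCCNE1 in t2iGo 1 did (369, 424 and 327 genes had an unadjusted limma p under 0.05). Among NODAL pathway and mesendoderm genes it was -2.76 for CER1, -2.58 for MIXL1 and -2.58 for GDF3. Among matrix and secreted genes it was 1.91 for LUM, 2.23 for NPNT, 2.06 for MFAP5, which is a microfibril protein, and 2.09 for AFP. MIXL1, LUM and AFP were at most 1.41 RPKM in 5iLA H7 and primed H1, whose libraries supply the spread of the test. NPNT was between 0.10 and 0.20 RPKM in primed H1, and CER1 between 0 and 0.24 RPKM in 5iLA H7.

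The histone genes HIST1H2BL and HIST1H3D were at -2.23 and -2.01. HHLA1, linked to an endogenous retrovirus, was at -1.97, and LOC729739 at -2.42. The clustered histone genes kept summed to between 34.1 and 69.8 RPKM in the libraries of primed H1. HHLA1 was between 0.20 and 1.06 RPKM there, so these calls also rest in part on values near 0. B3GNT7, a glycosyltransferase, was at -2.14 and HES3, a helix-loop-helix repressor, at 1.91. For some genes the other cultures carried most of the difference. CRIP1, at 2.01, was at 0.60 RPKM in the pCCNE1 library and 0.22 RPKM in the control of t2iGo, against 22.1 RPKM in the pCCNE1 library and 58.3 RPKM in the control of 5iLA H7. SNHG9, at 2.54, had an effect of 1.15 in t2iGo and a mean effect of -1.39 in the other cultures.

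Entries with shared sequence or overlapping loci had large values, and how reads were assigned was not tested. LEFTY1 was at -2.84, while LEFTY1 and LEFTY2 summed differed by -0.15 between the pCCNE1 and control libraries of t2iGo. HNRNPA1P10 was at 3.81 and RPL21 at -5.35. COMMD3-BMI1 was at -2.85 and MUTED-TXNDC5 at -2.96. The summed locus of MUTED, TXNDC5 and their readthrough was at 40.0 RPKM in the pCCNE1 library and 46.7 RPKM in the control of t2iGo.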

How the results depend on the processing

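As deposited, 89 genes were past 2-fold higher and 330 lower. The higher count moved to 246 with a pseudocount of 0.1 RPKM, 40 with 5 RPKM, 50 with a mean of at least 5 RPKM, 138 with median-ratio scaling, 138 with quantile normalization and 175 when rescaled to entries with a coding accession. The lower count moved to 1059 and 118 with those pseudocounts, to 113 with the length and GC trend removed and to 214 when centred on the median gene; the last 2 settings were chosen after seeing the data. Of 70 named genes past 2-fold, 37 stayed past it the same way under each setting that kept them; a mean of at least 5 RPKM kept 53 of the 70. None of the 70 changed sign, but 3 other named genes did, and so did the medians of 10 lists, none of which was over 0.28 in size as deposited. In the limma test, 19 higher and 42 lower calls became 1 and 13 with 1 term for pCCNE1 in t2iGo, 2 and 1 with no filter, 1 and 8 with median-ratio scaling and 1 and 8 with quantile normalization. Leaving small RNAs out, chosen after seeing the data, gave 12 and 17. Higher calls were 10 with a pseudocount of 0.1 RPKM and 11 without a variance trend. The adjusted limma p over these alternatives ran from 1.45e-05 to 1 for CER1, from 6.83e-05 to 0.66 for MIXL1 and from 0.0107 to 1 for AFP; the cause was not tested. No paired analysis was possible because each group is 1 library and the labels carry no replicate numbers. With 1 library a group no replicate could be left out, and the shallow pCCNE1 library limits genes of few reads.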

Other observations

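Interferon-induced genes had differences of both signs in t2iGo H1. IFI6, an interferon-induced mitochondrial protein, was at 15.1 RPKM in the pCCNE1 library, 10.2 RPKM in the uCCNE1 library and 4.83 RPKM in the control. IFITM1, a membrane protein that restricts virus entry and is abundant in stem cells, was at 80.1 RPKM in the pCCNE1 library, 94.4 RPKM in the uCCNE1 library and 215 RPKM in the control. IFITM2 was at 8.15 RPKM in the pCCNE1 library and 23.4 RPKM in the control, and was within 2-fold with the length and GC trend removed. Of 14 such genes kept, 1 was past 2-fold higher and 2 lower, beside 0.735% and 2.72% of all genes kept. MALAT1, a long nuclear RNA named after its value was seen, was at 561 RPKM in the pCCNE1 library, 333 RPKM in the uCCNE1 library and 204 RPKM in the control.

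Most genes of the remaining lists were within 2-fold of control. Of all genes kept, 0.735% were past 2-fold higher and 2.72% lower. None of the 4 endoderm regulators, 9 mesoderm and heart regulators, 7 neural genes and 16 adhesion genes kept was past 2-fold. Of 9 trophoblast genes kept, CGA and IGFBP3 were past 2-fold higher and TEAD4, a partner of YAP, past 2-fold lower, at 2.10 RPKM in the pCCNE1 library and 5.66 RPKM in the control. CGA, the shared subunit of glycoprotein hormones, was at 1.26 RPKM in the pCCNE1 library and listed at 0 in the control. Of 24 genes of the integrated stress and unfolded protein responses PCK2 alone was past 2-fold. None of 19 cholesterol synthesis genes (median -0.31) or 9 DNA methylation genes (median -0.17) was.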
